A study of Mus musculus with 12 samples.

Results

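A set of 10 genes of the DNA damage and p53 response was followed in mouse dorsal root ganglia after sciatic nerve injury: the family Gadd45a, Gadd45b and Gadd45g, the cell cycle inhibitor gene Cdkn1a, which encodes p21, and Mdm2, Ccng1, Bbc3, Bax, Trp53 and Btg2. They were taken by gene symbol from count files of 23238 distinct symbols, and all 10 were found and passed the filter on low counts. The ganglia, of lumbar levels L3 to L5, came from C57BL/6 mice at 8 weeks after birth. Female and male mice had either the nerve injury, labelled SNI, or a sham operation, in 4 groups of 3 libraries (Female sham, Female SNI, Male sham, Male SNI). No transgene or further agent is named for any group. The labels give neither the time after the operation nor whether a library is 1 mouse or a pool, so the p-values below rest on a spread among libraries that could be technical alone.

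The protein p53, encoded by Trp53, is a transcription factor that is held at a low level by the ubiquitin ligase Mdm2 and is stabilised when DNA is damaged. Its target genes stop the cell cycle (Cdkn1a, Btg2), feed back on p53 itself (Mdm2, Ccng1) or promote cell death through the mitochondria (Bax, and Bbc3, which encodes PUMA). GADD45 proteins are small stress-induced proteins that bind PCNA, p21 and the kinase MAP3K4, and their genes are also induced by routes that do not need p53. Sensory neurons do not divide in the adult, and Gadd45a and Cdkn1a are both known as genes that damaged sensory neurons express.

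The sequence before the start of each gene is shown for the 3 genes that changed after injury and for Gadd45b, the family member that did not pass the test, since the data compare how these genes moved together. RefSeq held an entry for all 10 genes, in 13 windows of 250 bases (build GRCm38.p6), and 5′ to 3′ on the strand of the gene 4 of them read as follows, with matches to any of 6 searched motifs in capitals.
Gadd45a, chr6:67037408-67037657, minus strand: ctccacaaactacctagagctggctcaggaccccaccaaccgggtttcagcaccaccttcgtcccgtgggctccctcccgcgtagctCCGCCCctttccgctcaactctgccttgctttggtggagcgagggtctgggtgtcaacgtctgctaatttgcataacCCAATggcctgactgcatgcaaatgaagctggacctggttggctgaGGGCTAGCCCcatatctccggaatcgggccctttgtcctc
Gadd45g, chr13:51846425-51846674, plus strand: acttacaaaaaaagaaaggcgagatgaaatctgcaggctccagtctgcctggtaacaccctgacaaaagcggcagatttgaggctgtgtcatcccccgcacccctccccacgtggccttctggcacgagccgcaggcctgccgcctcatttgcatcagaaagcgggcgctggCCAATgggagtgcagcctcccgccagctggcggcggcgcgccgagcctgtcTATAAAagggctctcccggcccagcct
Cdkn1a, chr17:29090729-29090978, plus strand: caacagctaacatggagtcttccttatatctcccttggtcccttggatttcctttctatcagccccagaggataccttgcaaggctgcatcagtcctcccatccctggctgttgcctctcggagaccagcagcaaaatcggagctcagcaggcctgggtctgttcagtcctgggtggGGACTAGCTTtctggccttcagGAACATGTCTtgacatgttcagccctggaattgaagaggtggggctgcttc
Gadd45b, chr10:80929841-80930090, plus strand: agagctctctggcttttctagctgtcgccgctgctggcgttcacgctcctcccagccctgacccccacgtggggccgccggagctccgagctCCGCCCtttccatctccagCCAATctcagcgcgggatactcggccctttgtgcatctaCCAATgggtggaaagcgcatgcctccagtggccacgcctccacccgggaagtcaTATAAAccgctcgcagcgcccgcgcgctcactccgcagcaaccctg

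Both strands were searched for the AP-1 site TGANTCA, the cyclic AMP response element TGACGTCA, the GC box GGGCGG, the CCAAT box CCAAT, the TATA box TATAAA and 1 copy of the p53 consensus, a pattern of 10 bases. Overlapping matches were each counted. The p53 consensus matched 73 and 51 bases before the first of the 2 Cdkn1a starts and 40 bases before the Gadd45a start, and it was not found in these windows of Gadd45g and Gadd45b. A match stood in 6 of the 13 windows, each before a different gene of the 10, beside 7.13% of all 32851 RefSeq windows of the same length. A CCAAT box stood in 8 of the 13 windows and a GC box in 9, beside 33.8% and 32.7% of all windows. The TATA box stood in the windows of Gadd45g (27 bases before the start), Gadd45b (46 bases) and Trp53 (248 bases), beside 12.4% of all windows. The AP-1 site was in none of the 13 windows (6.75% of all), and the cyclic AMP response element was in that of Btg2 alone (1.55% of all). These are matches of letters and do not show binding, and the window before the second Cdkn1a start held 2 GC boxes and no p53 consensus.

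Total counts per library lay between 12476606 and 15520746, and levels are given as CPM, counts scaled to the library total, on totals scaled by TMM factors of 0.914 to 1.07. Libraries of a group correlated at Pearson r of 0.910 to 0.974 over log2 CPM, and no pair differed by as little as sampling noise, with a chi-square per gene of at least 8.4. On the first principal component Male SNI replicate 2 and Female sham replicate 2 stood apart, with scores of 99.9 and 47.5 against -32.8 to 0.963 in the others. The injury marker Atf3 was at 275 to 361 CPM in the SNI libraries and at 43.6 to 56.7 CPM in the sham libraries. Summed over 8 sensory neuron markers, levels were 9564 to 12828 CPM across the 12 libraries, none of the markers being at 0.

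Gadd45a, Gadd45g and Cdkn1a rose after injury in both sexes, and none of the other 7 genes passed the test. Averaged over the sexes the increases on the log2 scale were 1.89 ± 0.19 for Gadd45a, 1.42 ± 0.09 for Cdkn1a and 1.05 ± 0.11 for Gadd45g (SE). Each of the 3 also passed for injury in females and for injury in males, tested in the same fit of all 12 libraries. In fits of 1 sex alone, 3 of the 10 genes passed in females and 2 in males, where Gadd45a did not. Over all genes those fits called 905 of 14365 in females and 71 of 14332 in males. Calls were made with edgeR's quasi-likelihood test at a Benjamini-Hochberg adjusted p below 0.05 over 15036 genes, of which 6.52% were called in either direction for injury averaged over the sexes (3.78% higher). For injury in females 2.89% of all tested genes were called (1.6% higher) and for injury in males 2.13% (1.65% higher), beside 3 of the 10 genes in each, all higher. The median log2 change of the 10 genes was 0.21, and that of all tested genes was 0.00. The 10 genes were chosen with earlier results of these data known. Comparisons of the set with all tested genes, here and below, are thus descriptive and not an independent test. With each library left out in turn, 626 to 1766 genes were called over all, and among the 10 the count was 3 in each of those 12 fits.

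**Figure D1:**
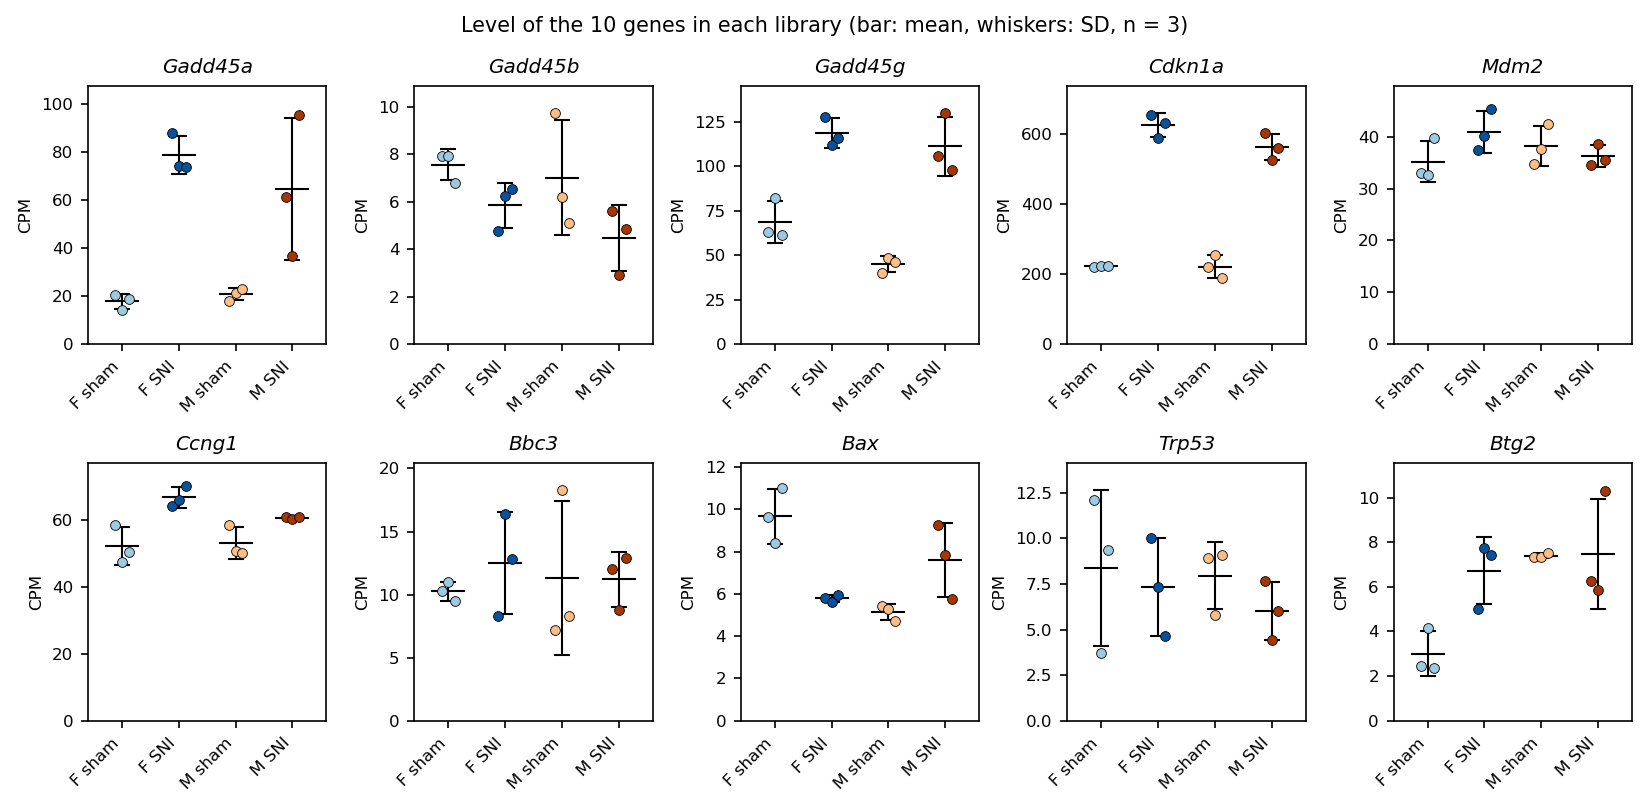
CPM of each of the 10 genes (vertical axis, from 0, a separate scale per gene) in the 3 libraries of each group, F for female and M for male, with the mean as a bar and the SD as whiskers. Gadd45a, Gadd45g, Cdkn1a and Ccng1 lie higher in every SNI library than in every sham library of the same sex, and the SNI libraries of Bax lie below sham in females and above it in males, though Bax passed the edgeR test in neither sex.

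Gadd45a (chromosome 6, 67035096 to 67037407, GRCm38 as all positions here), the stress sensor of the family best known as a p53 target, changed the most of the 10. Its level was 20.5, 14.2 and 18.7 CPM in the 3 female sham libraries and 87.7, 74.2 and 73.8 CPM in the female SNI libraries. In males it was 18, 21.3 and 23.0 CPM after sham and 61.3, 36.6 and 95.4 CPM after SNI. No SNI library overlapped a sham library in either sex, and the male SNI libraries were the most widely spread, with Male SNI replicate 2, one of those that stood apart, the lowest. The mean rose from 17.8 ± 3.24 to 78.6 ± 7.92 CPM in females (SD, n = 3), a log2 change of 2.14 ± 0.28 (SE; edgeR adjusted p = 0.000676). In males it rose from 20.8 ± 2.54 to 64.5 ± 29.5 CPM, by 1.63 ± 0.27 on the log2 scale (edgeR adjusted p = 0.00506). With 1 library left out the male change was between 1.23, without Male SNI replicate 3, and 1.92, without Male SNI replicate 2, and it passed in those 12 fits. In a fit of the 6 male libraries alone it was 1.63 ± 0.32 and did not pass (edgeR adjusted p = 0.0955). That fit called 71 genes over all, against 321 for injury in males in the fit of all 12 libraries. Exons of Gadd45a overlap those of the antisense gene E230016M11Rik over 337 bases. With strand handling not stated the reads of the pair cannot be told apart, although E230016M11Rik was at 1.18 CPM over all libraries pooled.

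Gadd45g (chromosome 13, 51846675 to 51848475), a family member known from cytokine and growth arrest responses, also rose in both sexes. Female sham libraries were at 62.9, 82.2 and 61.2 CPM and female SNI libraries at 128, 112 and 116 CPM. Male sham libraries were at 40.2, 48.6 and 46.3 CPM and male SNI libraries at 106, 130 and 97.8 CPM. The SNI libraries of the sexes overlapped each other, whereas every male sham library lay below every female one. The log2 change was 0.79 ± 0.15 in females (edgeR adjusted p = 0.0126) and 1.30 ± 0.15 in males (edgeR adjusted p = 0.00034). The female call did not hold in 4 of the 12 fits with 1 library left out. Leaving out replicate 1 or 3 of the Female SNI group, or replicate 1 or 3 of the Female sham group, gave changes of 0.73, 0.80, 0.72 and 0.70 that did not pass (edgeR adjusted p = 0.0749, 0.0516, 0.0632 and 0.0864). In those fits 155, 178, 240 and 175 genes were called over all for injury in females, against 435 with all libraries.

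Gadd45b (chromosome 10, 80930091 to 80932204), the member known as an early gene of neuronal activity and of NF-kappaB signalling, was at a log2 change of -0.51 ± 0.22 and did not pass (edgeR adjusted p = 0.232). Female sham libraries held 7.94, 7.94 and 6.81 CPM and female SNI libraries 4.75, 6.25 and 6.54 CPM, without overlap. Male sham libraries held 9.73, 6.20 and 5.09 CPM and male SNI libraries 5.61, 2.92 and 4.86 CPM, which overlapped. Its estimate was thus on the other side of 0 from those of Gadd45a and Gadd45g, on counts of 38 to 131 per library.

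Cdkn1a (chromosome 17, 29090979 to 29100722), whose product p21 inhibits cyclin-dependent kinases, had the smallest error of the 10 changes. Levels were 220, 222 and 223 CPM in the female sham and 654, 587 and 631 CPM in the female SNI libraries. They were 219, 254 and 190 CPM in the male sham and 601, 526 and 558 CPM in the male SNI libraries. The lowest SNI library, at 526 CPM, was thus far above the highest sham library, at 254 CPM. The mean in females was 2.82 times as high after SNI as after sham, with a log2 change of 1.5 ± 0.12 (edgeR adjusted p = 1.27e-05). In males the mean was 2.54 times as high, with a log2 change of 1.35 ± 0.12 (edgeR adjusted p = 3.19e-05). Averaged over the sexes the adjusted p was 2.02e-07 for Cdkn1a, 4.07e-05 for Gadd45a and 4.28e-05 for Gadd45g. Exons of Cdkn1a overlap the antisense model AC167363.2 over 273 bases, for which no count was used here.

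Trp53 itself (chromosome 11, 69580348 to 69591873) was measured at 3.71 to 12.1 CPM, with SNI and sham libraries overlapping in both sexes. Its log2 change was -0.30 ± 0.29 (edgeR adjusted p = 0.668), so that an increase of its mRNA was not detected. Mdm2 (chromosome 10, 117688875 to 117710758), the main negative regulator of p53 and one of its targets, was at 32.7 to 45.4 CPM in all 12 libraries. SNI and sham libraries of Mdm2 overlapped in both sexes, and the change was 0.07 ± 0.10 (edgeR adjusted p = 0.807).

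Ccng1 (chromosome 11, 40748552 to 40755309), which encodes cyclin G1, a p53 target that acts on p53 through a phosphatase and Mdm2, was not called. In females the sham libraries held 58.5, 47.6 and 50.5 CPM and the SNI libraries 64.2, 65.9 and 70.3 CPM. In males the sham libraries held 58.6, 50.7 and 50 CPM and the SNI libraries 60.8, 60.4 and 60.8 CPM. Each SNI library lay above each sham library of its sex, but the gap in males was narrow. The change was 0.27 ± 0.09 (edgeR adjusted p = 0.0908), and it passed with DESeq2 (adjusted p = 0.0414) and with sample quality weights in limma-voom (adjusted p = 0.0242). In all, 4 of the 10 genes, namely the 3 called genes and Ccng1, had SNI libraries above the sham libraries without overlap in both sexes, beside 6.49% of all tested genes that did not overlap in the same direction in both.

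**Figure D2:**
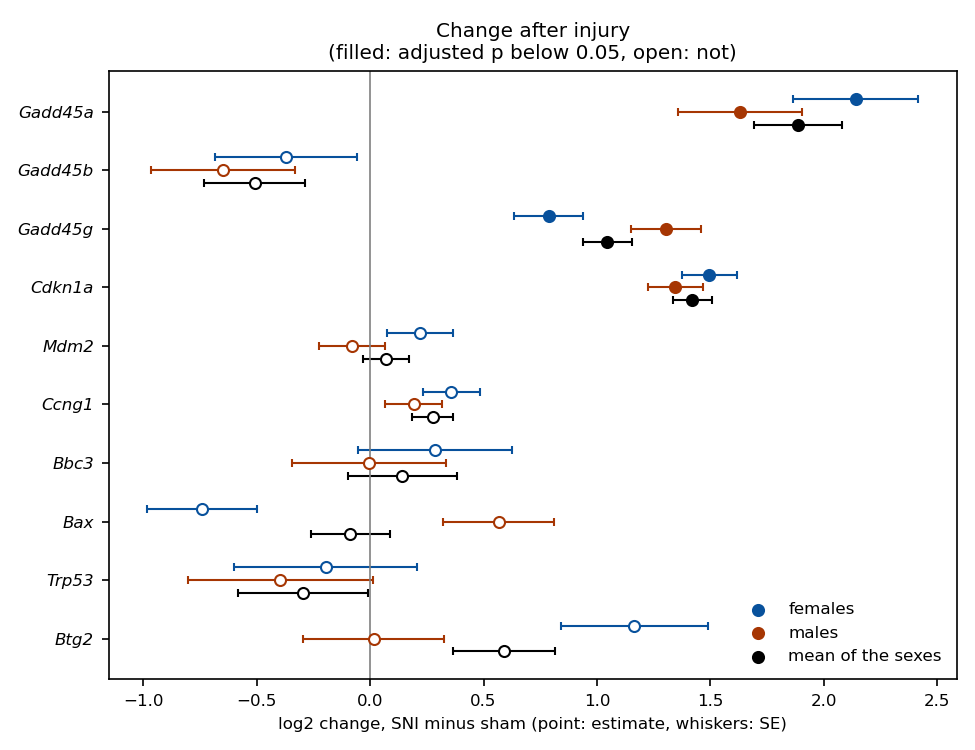
Log2 change after SNI relative to sham (horizontal axis) for each of the 10 genes in females, in males and averaged over the sexes, with points as estimates and whiskers as the SE of the model, and filled points where the adjusted p was below 0.05. Filled points belong to Gadd45a, Gadd45g and Cdkn1a, and the estimates for Bax lie on opposite sides of 0 in the sexes (-0.74 and 0.57).

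Of the 10 genes Bbc3 and Bax act in mitochondrial cell death, and neither was called for injury averaged over the sexes. Bbc3 (chromosome 7, 16308398 to 16318334), the gene of the BH3-only protein PUMA, was at 7.20 to 18.3 CPM, both extremes being male sham libraries, and its change was 0.14 ± 0.24 (edgeR adjusted p = 0.842). Bax (chromosome 7, 45461695 to 45466903), which encodes a protein that permeabilises the mitochondrial outer membrane, was at -0.09 ± 0.17 (edgeR adjusted p = 0.865). The estimates for the sexes behind that average had opposite signs. In females Bax was at 9.66, 8.39 and 11 CPM after sham and at 5.79, 5.64 and 5.95 CPM after SNI, whereas in males it was at 5.42, 5.28 and 4.71 CPM after sham and at 9.26, 7.83 and 5.75 CPM after SNI. The libraries did not overlap in either sex, yet neither change passed (-0.74 ± 0.24 in females, edgeR adjusted p = 0.143, and 0.57 ± 0.25 in males, edgeR adjusted p = 0.303). The lower level in females passed with sample quality weights in limma-voom (-0.82 ± 0.22, adjusted p = 0.026). That change did not pass in 10 of the 11 other settings. Among all tested genes, 0.499% were separated in opposite directions in the sexes in this way. Exons of Bax overlap those of Gm45808 on the same strand over 192 bases. No count of Gm45808 was available, and the effect of the overlap on the value of Bax was not tested.

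Btg2 (chromosome 1, 134074865 to 134079155), an antiproliferative p53 target that is also an immediate early gene in neurons, was at 2.47, 4.16 and 2.36 CPM after sham and at 5.01, 7.75 and 7.42 CPM after SNI in females. In males it was at 7.35, 7.35 and 7.51 CPM after sham and at 6.26, 5.84 and 10.3 CPM after SNI. The female groups did not overlap and the male groups did. Its change was 1.17 ± 0.32 in females (edgeR adjusted p = 0.0776) and 0.02 ± 0.31 in males (edgeR adjusted p = 0.987). Averaged over the sexes it was 0.59 ± 0.22 (edgeR adjusted p = 0.159). The female change passed in 3 of the 11 other settings, DESeq2 among them (adjusted p = 0.0254). The average passed in 1 of the 10 other settings, without Male SNI replicate 2 and Female sham replicate 2 (0.83 ± 0.23, edgeR adjusted p = 0.0193). These changes rest on counts of 33 to 151 per library.

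Counted by library, SNI and sham did not overlap for 7 of the 10 genes in females, 5 higher and 2 lower, beside 26.5% of all tested genes. In males they did not overlap for 5 of the 10, all higher, beside 17.9% of all tested genes.

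Whether the change after injury differed between the sexes was tested as an interaction, with positive values where the male change was the higher. None of the 10 genes passed, as none of the 15036 tested genes did (0% called with edgeR), and DESeq2 and limma-voom called none of the 10. At an unadjusted p below 0.05 there were 3 of the 10 and 7.32% of all tested genes. The 3, named for their p, were Bax at 1.31 ± 0.35, Btg2 at -1.15 ± 0.45 and Gadd45g at 0.52 ± 0.21, each with an edgeR adjusted p of 0.647. The differences for Gadd45a and Cdkn1a were -0.51 ± 0.38 and -0.15 ± 0.17 (edgeR adjusted p = 0.687 and 0.771).

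The same 3 genes were those whose sham libraries did not overlap between the sexes, and both comparisons use those sham libraries. Males minus females in sham, Btg2 was at 1.30 ± 0.32, Bax at -0.91 ± 0.24 and Gadd45g at -0.61 ± 0.15, with edgeR adjusted p = 0.849, 0.938 and 0.849. None of the 10 was called there with edgeR, DESeq2 or limma-voom, beside 0.0399% of all tested genes with edgeR, and 3 had an unadjusted p below 0.05, beside 4.57% of all tested genes. The 3 of 10 genes without overlap stand beside 15.2% of all tested genes. After SNI, only Ccng1 of the 10 did not overlap between the sexes, with the male libraries lower, beside 8.47% of all tested genes.

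Further genes of the same pathways were read from lists grouped by function. The lists were chosen with earlier results of these data known. Their counts beside the share of all tested genes are thus descriptive and not an independent test. Among 28 tested further p53 target genes, 1 was called, and it rose, beside 6.52% of all tested genes called. The list's median log2 change was 0.14, and 4 of its genes, all higher, had an unadjusted p below 0.05, beside 18.4% of all tested genes. The gene that rose was Pmaip1, which encodes the BH3-only protein NOXA, at 2.18 ± 0.51 (edgeR adjusted p = 0.0199). It had 7, 3 and 2 counts in the female sham and 64, 47 and 55 counts in the female SNI libraries. In males it had 6, 33 and 15 counts after sham and 15, 17 and 56 counts after SNI, so that the male groups overlapped. The call did not hold when replicate 1 or 3 of Female SNI, or replicate 3 of Female sham, of Male SNI or of Male sham was left out (adjusted p = 0.0525, 0.0516, 0.0606, 0.0506 and 0.057). By sex, Pmaip1 passed in females (edgeR adjusted p = 0.0207) and not in males (edgeR adjusted p = 0.69). Next in the list was Phlda3, an inhibitor of AKT signalling, at 0.42 ± 0.12 (edgeR adjusted p = 0.0522), named after its value was seen. Rprm, the G2 arrest gene with the highest CPM of the list, was at 0.32 ± 0.10 (edgeR adjusted p = 0.0852). DESeq2 and limma-voom with sample quality weights each called 3 of this list.

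The regulators of p53 and the DNA damage kinases gave no call among 21 tested genes, beside 6.52% of all tested genes called. Their median was -0.06, and 3 genes, all lower, were at an unadjusted p below 0.05, where 18.4% of all tested genes were. Usp7, a deubiquitinase of p53 and Mdm2 and the gene with the highest CPM of the list, was at -0.21 ± 0.08 (edgeR adjusted p = 0.184). No gene of this list was called by DESeq2 or limma-voom, and 1 was with sample quality weights. Among 15 further cyclin-dependent kinase inhibitors, G1 cyclins and their partners none was called by edgeR, DESeq2 or limma-voom. EdgeR called 6.52% of all tested genes. The median was 0.17, and 2 genes, both higher, had an unadjusted p below 0.05, again beside 18.4% of all tested genes. Cdkn2d, the gene of p19INK4d, was at 0.04 ± 0.25 (edgeR adjusted p = 0.974). None of 4 tested genes of the BTG and TOB family, relatives of Btg2, was called by any of these tools or had an unadjusted p below 0.05. Over all tested genes those shares were 6.52% with edgeR and 18.4%, so a count of 0 among 4 genes is near them. Btg1 was at 0.19 ± 0.14.

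Of 17 genes for GADD45 partners, stress kinases and DNA demethylation, the test called 1, beside 6.52% of all tested genes. The median over the list was -0.11. The called gene was Tet3, for an enzyme that oxidises 5-methylcytosine, which rose by 0.73 ± 0.14 (edgeR adjusted p = 0.00446). Its libraries were at 17.5 to 21.6 CPM in female sham, 28.1 to 38.9 CPM in female SNI, 15.6 to 19.0 CPM in male sham and 24.9 to 35 CPM in male SNI, without overlap in either sex. Of all tested genes 6.49% did not overlap in the same direction in both sexes. Taken by sex, Tet3 passed in males (edgeR adjusted p = 0.0498) and not in females (edgeR adjusted p = 0.0851), and the interaction was not called. Mapk10, the neuronal JNK3 gene and the gene with the highest CPM of the list, was at -0.28 ± 0.14 (edgeR adjusted p = 0.311). Without Male SNI replicate 2 the list held 3 called genes.

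In the BCL2 family, the relatives of Bax and the partners of PUMA, 1 of 13 further genes rose and 1 fell. Beside them 6.52% of all tested genes were called, and the list's median was 0.16. Hrk, the gene of the neuronal BH3-only protein harakiri, rose by 1.09 ± 0.23 (edgeR adjusted p = 0.0102). By sex, Hrk passed in females (edgeR adjusted p = 0.0276) and not in males (edgeR adjusted p = 0.322). It was at 3.15, 2.80 and 2.96 CPM after sham and 7.41, 8.02 and 9.25 CPM after SNI in females, without overlap, and at 4.39 to 6.58 CPM and 5.68 to 13.1 CPM in the males, with overlap. The highest Hrk level, 13.1 CPM, was that of Male SNI replicate 2. The antiapoptotic gene Bcl2 fell by 0.44 with an SE of 0.09 (edgeR adjusted p = 0.00971). Its libraries were at 64.3 to 72 CPM after sham and 48.8 to 55.1 CPM after SNI in females, and at 65 to 79 CPM and 48.2 to 58 CPM in the males, without overlap in either sex, although neither sex passed (edgeR adjusted p = 0.148 in females and 0.0736 in males). Such a separation in the same direction in both sexes held for 6.49% of all tested genes. Bad, the gene with the highest CPM of the family, was at 0.16 ± 0.14 (edgeR adjusted p = 0.633). The sex by injury interaction was not called for Pmaip1, Hrk, Bcl2 or Tet3 (edgeR adjusted p = 0.647, 0.659, 0.854 and 0.889).

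**Figure D3:**
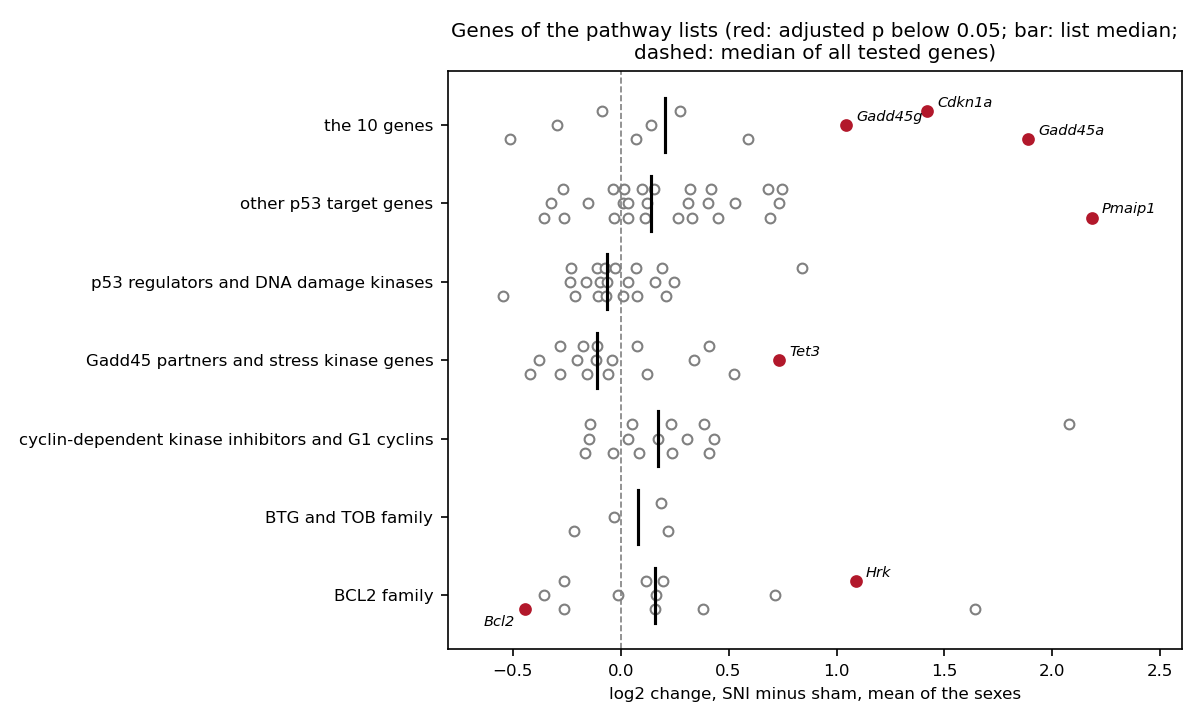
Log2 change after SNI averaged over the sexes (horizontal axis) for the 10 genes and for each tested gene of 6 lists, 1 point per gene, red where the adjusted p was below 0.05, with the median of each list as a bar and that of all tested genes as a dashed line. Called genes are the 3 of the 10, Pmaip1, Tet3, Hrk and, below 0, Bcl2.

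**Figure D4:**
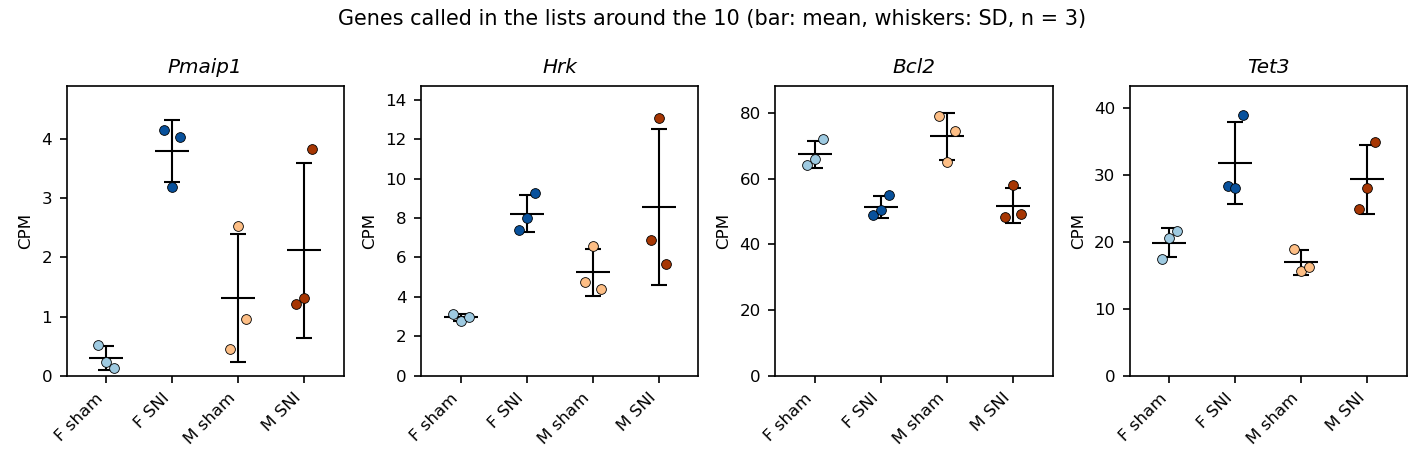
CPM (vertical axis, from 0) of the 4 genes called in the lists, in the 3 libraries of each group, F for female and M for male, with the mean as a bar and the SD as whiskers. Bcl2 and Tet3 are separated by injury in both sexes, whereas the male libraries of Pmaip1 and Hrk overlap.

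The genes whose log2 CPM followed each called gene most closely over the 12 libraries were sought among 10857 genes with a mean of at least 5 CPM. For Cdkn1a they were Nts, Camk1 and Atf3, with Pearson r of 0.989, 0.988 and 0.987. For Gadd45a they were Sema6a, Chst2 and Sez6l, with r of 0.982, 0.981 and 0.981, and for Gadd45g they were Ptpn1, Lbh and Cndp2, with r of 0.982, 0.982 and 0.978. The correlations are taken across both conditions and share the libraries and their depth.

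Summed levels of marker genes for some cell types also differed between the groups. Counts of called markers stand beside 6.52% of all tested genes called for injury averaged over the sexes (3.78% higher). In lists of 5 to 8 genes a count of 0 is close to that share. Of 10 macrophage markers 9 rose, and their summed level was 121 to 166 CPM in female sham, 291 to 362 CPM in female SNI, 107 to 144 CPM in male sham and 251 to 407 CPM in male SNI libraries. Of 8 sensory neuron markers 4 fell and none rose. Their sums were 11221 to 12828 CPM in female sham, 9564 to 10056 CPM in female SNI, 11071 to 11733 CPM in male sham and 9651 to 11427 CPM in male SNI libraries. Among neutrophil markers 2 of 3 tested rose, and among satellite glia markers 1 of 5. None of 8 cycling cell markers was called, with sums of 65.0 to 91.2 CPM in sham and 73.5 to 101 CPM in SNI libraries, and none of 6 Schwann cell, 6 endothelial and mural cell, 5 fibroblast or 6 skeletal muscle markers was. The 4 T cell markers did not pass the filter on low counts, with sums of at most 5.05 CPM. The skeletal muscle sum was 1209 CPM in Male SNI replicate 1 and at most 62.4 CPM in every other library, and the satellite glia sum was highest in Male SNI replicate 2, at 8116 CPM. Gadd45a, Gadd45g and Cdkn1a were called for injury averaged over the sexes with either of these libraries left out. No marker was at 0 in all libraries, and the part of these cell types in the changes of Gadd45a, Gadd45g, Cdkn1a, Hrk, Bcl2 and Pmaip1 was not tested. In whole ganglia a change in the number of cells of a type and a change in RNA per cell cannot be told apart.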

How the data were processed

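Messenger RNA was counted in 12 libraries, per the labels' protocols made from polyadenylated RNA with a QuantSeq 3′ kit and sequenced as single reads. Each library has 1 deposited file with unnormalised counts by gene symbol. Listed by the submitters' processing notes, without a role, are mm10, Bowtie2 and bedtools. Of strand and multiply mapped reads the sources used here say nothing. The 44 extra rows of 35 repeated symbols were summed with their namesakes (Btg3 among them).

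Genes were kept by filterByExpr (minimum count 10, 15036 genes), scaled by TMM on full totals and fitted in 1 model with a coefficient per group over all 12 libraries (edgeR 4.0.16, R 4.3.3). Two-sided quasi-likelihood tests were adjusted by Benjamini-Hochberg over all genes. The SE is the log2 change divided by the root of F. Alternatives used DESeq2 1.42.0, limma 3.58.1, other scalings and filters, a replicate block and left-out libraries. On data simulated for injury averaged over the sexes (14748 genes), 47% of 100 genes changed by 1 on the log2 scale and 80% of 100 changed by 1.5 were recovered, with 4 false calls.

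The 10 genes were given by symbol. The text names them all and, in 6 pathway lists, each called gene (at most 6) and the gene with the highest CPM, with 3 genes per called member by likeness. Members and lists were chosen with earlier results of these data known. Gene positions are from RefSeq, exon overlaps from GENCODE vM21 (GRCm38), and promoter windows from RefSeq (GRCm38.p6).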

Additional observations from a re-analysis of the deposited data

Results flagged for a closer look

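Bax was the only member of the 10 genes whose SNI libraries lay wholly below the sham libraries in females and wholly above them in males. The change in males minus the change in females was 1.31 ± 0.35 on the log2 scale, and by edgeR's quasi-likelihood test this difference had an unadjusted p of 0.00207 and an adjusted p of 0.647 over all genes. With 1 library left out the difference was 1.14 to 1.48, and it did not pass in those fits.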

How the results depend on the processing

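Gadd45a, Gadd45g and Cdkn1a kept their direction and their call for injury averaged over the sexes under all 10 other settings and all 12 fits with 1 library left out, with log2 changes of 1.69 to 2.03, 0.99 to 1.12 and 1.37 to 1.48 when a library was left out. Ccng1 passed with DESeq2 (0.28) and with sample quality weights in limma-voom (0.28), and Btg2 passed without Male SNI replicate 2 and Female sham replicate 2 together (0.83). Of the 10 genes 3 to 4 were called for injury averaged over the sexes under the other settings. For injury in females 2 to 4 were called with a library left out, and 6 with sample quality weights, 5 higher and, for Bax, 1 lower. With those weights 1562 of all genes were called for injury in females, against 435 in the main edgeR fit. For injury averaged over the sexes 980 were called over all genes, and 2008 with sample quality weights. Without Male SNI replicate 2 and Female sham replicate 2 together 1848 were called. With a library left out that count was 626 to 1766: 648, 652 and 626 without Female SNI replicate 1, 2 and 3, 631 without Male sham replicate 1 and 1766 without Male SNI replicate 2. For injury in females it was 155 to 1176 and in males 137 to 601. The cause was not tested.

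Changes near 0 turned sign. In males Bbc3 (-0.00) was at 0.0082 with DESeq2, 0.12 with limma-voom, 0.25 with sample quality weights, 0.10 with the replicate block, 0.0085 with RLE scaling and 0.16 without Male SNI replicate 2 and Female sham replicate 2 together, and at -0.24 to 0.53 with a library left out. In males Btg2 (0.02) was at -0.0143 with limma-voom, -0.0566 with sample quality weights, -0.0016 with the replicate block and -0.0414 on library totals, and at -0.29 to 0.17 with a library left out. With a library left out Mdm2 in males was at -0.15 to 0.0081 and Trp53 in females at -0.55 to 0.16.

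Same-numbered libraries of different groups correlated in their deviations from the group means at -0.0906 to 0.425 (median -0.000244, 18 pairs), and 5 of 12 libraries correlated best with their own number, so the numbers were not taken as pairs. With the replicate block 3 of the 10 genes were called for injury averaged over the sexes, in females and in males, none for the interaction, and the changes of Gadd45a, Gadd45g and Cdkn1a were 1.86, 1.05 and 1.42. Counts of 33 to 163 per library limit Btg2, Bax, Trp53 and Gadd45b.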
